A study of Homo sapiens with 10 samples.

Results

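The comparison described here is that of ZNF274 knockout (KO) with wild-type (WT) HEK293T cells, across all genes. Its members were the 6 HEK293T libraries among the 10 RNA-seq libraries of the series, and they were chosen by their labels. HEK293T is a human line derived from embryonic kidney that carries the SV40 large T antigen. The WT group held the 3 libraries S15, S16 and S17 and the KO group the 3 libraries S18, S19 and S20. The design text describes both as independent clones, and the KO clones were made with CRISPR-Cas9 and a pair of guides flanking ZNF274, followed by sorting of single cells. The labels do not say which clone each library came from, so P values measure only the spread between the 3 libraries of a group, which may be technical. No further treatment of either group is given in the labels. The other 4 libraries are WT and KO neural progenitor cells (NPCs) grown from the embryonic stem cell line H1 and are used only for side-by-side values.

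ZNF274 is a zinc finger protein that carries KRAB and SCAN domains. KRAB zinc finger proteins (KZFPs) bind DNA through tandem C2H2 fingers and recruit TRIM28 and the methyltransferase SETDB1, which deposits the repressive histone mark H3K9me3. KZFP genes are themselves arranged in tandem clusters, largely on chromosome 19, and ZNF274 is known for binding the 3' ends of such genes. The clustered protocadherins (PCDHs) are a further tandem family on chromosome 5, whose cell surface proteins give neurons their identity.

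The libraries held 21421013 to 32285876 counts on genes, and 18461 to 19174 genes had at least 1 count. Levels are given as CPM, counts scaled to a common library size after normalization, and a level of 3 counts, or 0.0921 to 0.131 CPM, was taken as the floor. Of the 22750 genes listed, 19018 were tested. Library S18 stood apart, with 90 of 436 bins along the chromosomes shifted from the WT mean against 0 to 13 in each other library, and with 17571 counts of the RNA RN7SK against 255 to 1660. Its values are given beside the results they touch. Of 12 tested genes that mark HEK293T cells, 7 were at 5 CPM or more in every library and none of the 12 was called. The highest value of any blood cell marker was 1.53 CPM and of any pluripotent stem cell marker 0.218 CPM. Neural progenitor markers summed to 126, 222 and 199 CPM in WT and to 101, 135 and 149 CPM in KO libraries. Fibroblast and mesenchyme markers summed to 21.9 to 30.9 CPM over the 6 libraries, and no marker of either list was called.

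The targeted gene, ZNF274, was counted 445, 423 and 492 times in S15, S16 and S17 and not once in S18, S19 or S20. A gene was called when its adjusted P value was below 0.05 in edgeR's quasi-likelihood test and its fold change (FC) between the groups above 2. Besides ZNF274, 92 of 19017 genes were called, or 0.484%, of which 91 were higher in KO cells (0.479%) and 1 was lower (0.00526%). In all 92 the highest library of one group lay below the lowest of the other, and the same held for 7.16% of all tested genes with KO above WT and for 5.26% with KO below WT. At an unadjusted P value below 0.05 stood 7.11% of the genes (1353, and 840 without S17), and 51.4% had a log2 FC above 0. The median log2 FC of all genes was 0.011, and 0.098 when counts were scaled by library size alone, so that single fold changes have to be read against that shift. Leaving out S18 gave 105 calls (101 higher and 4 lower), which shared 89 genes with the 92. Leaving out a WT library gave fewer calls, 43 without S16, 56 without S15 and 60 without S17. These results compare bulk RNA, in which more cells that express a gene and more RNA per cell cannot be told apart.

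**Figure D1:**
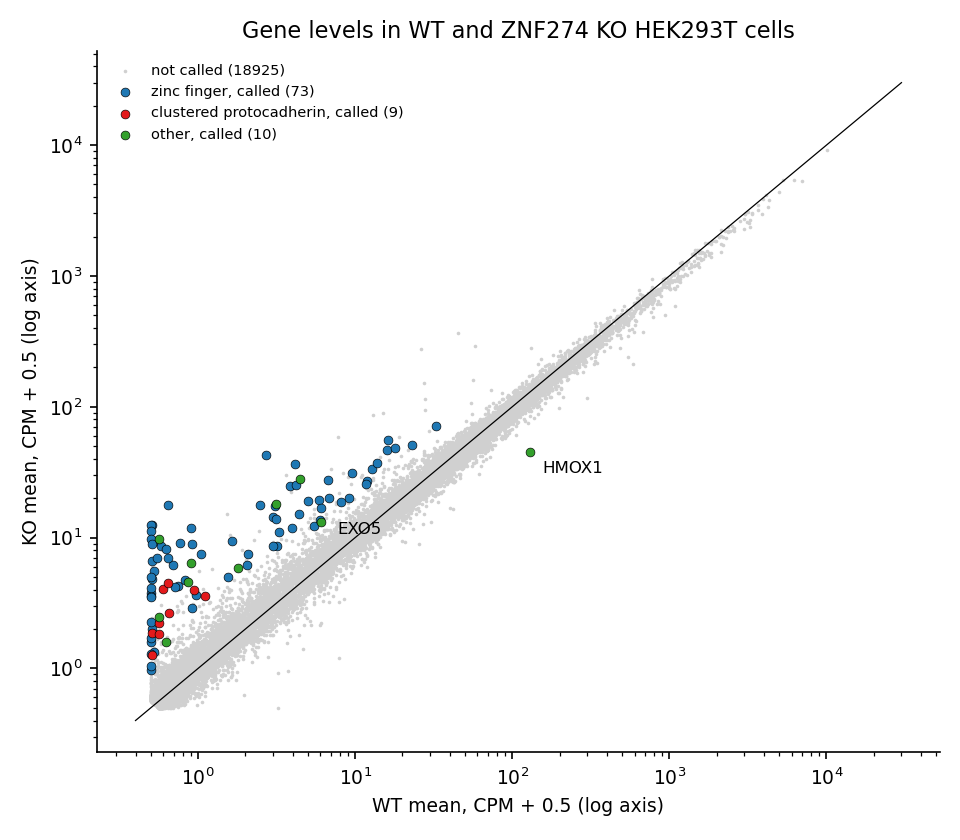
Mean level of each tested gene other than ZNF274 in the 3 WT libraries (x axis) and in the 3 KO libraries (y axis), as CPM + 0.5 on log axes. Each point is a gene, called genes are coloured by family with their number, and the line marks equal levels. The 91 genes called higher lie above the line and HMOX1 is the 1 called gene below it.

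The genes called higher fell mostly into the zinc finger family. Of the 91, 73 carry a zinc finger gene symbol or encode a KZFP, 9 are clustered PCDHs, 6 belong to neither family and 3 are identifiers that the annotation used here does not hold. The 73 comprise 59 KZFPs, 7 protein-coding zinc finger genes without a KRAB box, and 7 noncoding genes or pseudogenes named for a zinc finger gene. Leaving out a WT library took the zinc finger calls to 47 without S15 and 37 without S16, and leaving out S18 to 76. The 333 KZFPs tested had a median log2 FC of 0.49 (0.45 when bounds replace the fold changes of genes at the floor), whereas the 183 protein-coding zinc finger genes without a KRAB box had a median of 0.02. Of the 7 called without a KRAB box, ZNF232 rose from 13.3 to 36.4 CPM and ZNF239 from 9.05 to 30.5 CPM. The called zinc finger genes lie on 9 chromosomes, with 49 on chromosome 19, 9 on chromosome 7 and 7 on chromosome 12. No zinc finger gene was called lower. At an unadjusted P value below 0.05, 194 of the 584 zinc finger genes tested were higher, called ones included, and 17 were lower, compared with 842 (4.43%) and 511 (2.69%) of all 19017 genes.

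Summed over the 73 called genes, zinc finger RNA came to 256, 270 and 260 CPM in the WT libraries. The sums in the KO libraries S18, S19 and S20 were 1127, 1106 and 949 CPM, a 4.05-fold difference of the means. Over all 333 tested KZFPs the sum was 3437 ± 47.0 CPM (SD, n = 3) in WT cells and 4702 ± 330 CPM (SD, n = 3) in KO cells, so that the family as a whole differed 1.37-fold. The number of KZFPs above the floor was 290 to 293 in the WT libraries and 319 to 325 in the KO libraries. These sums describe genes partly chosen on the same libraries and carry no test.

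Among KZFPs above the floor in WT cells, the median log2 FC was larger in the classes with a lower WT level. Of the 34 tested KZFPs at or below the floor in every WT library, 19 were called, and their median log2 FC was at least 3.24. Such genes pass the filter on low counts mainly through the KO libraries, so neither their number nor their median is evidence by itself. Of 33 KZFPs between the floor and 1 CPM, 12 were called, with a median log2 FC of 1.84. Of 145 between 1 and 10 CPM, 20 were called and the median was 0.49, with 129 above 0. Of 121 at 10 CPM or more, 8 were called and the median was 0.19, with 90 above 0. The split uses the WT libraries that also enter the FC, and it was made after the values were seen. The order of the medians is therefore a description only.

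**Figure D2:**
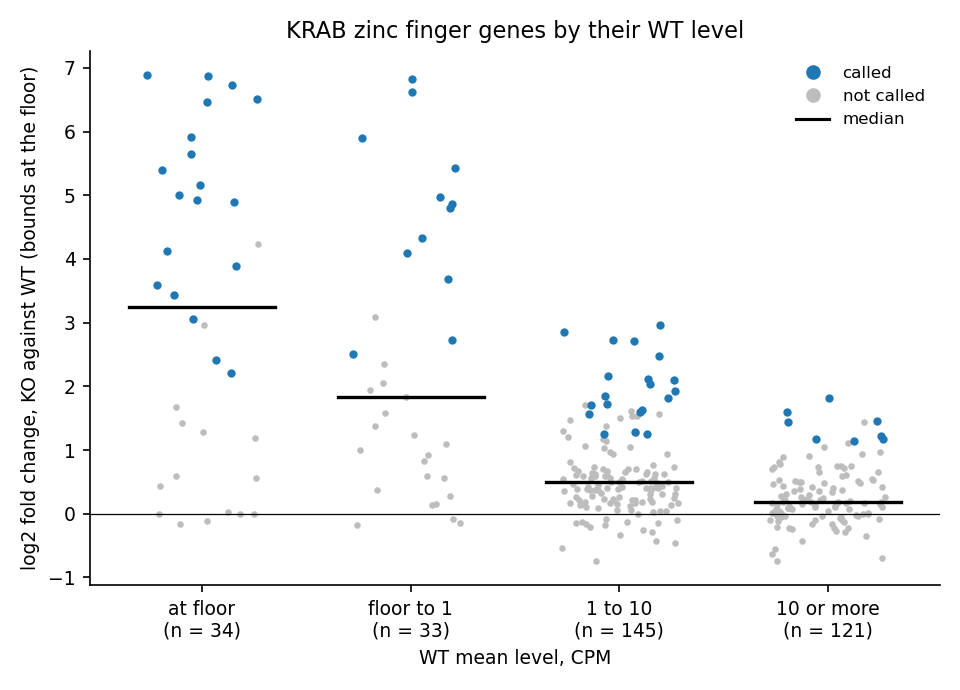
Log2 FC of each tested KZFP, KO against WT (y axis), by its mean level in WT cells in CPM (x axis), where genes that never exceed the floor in WT cells are drawn at their lower bound. Points are genes, blue where called, and black lines are medians, at 1.84, 0.49 and 0.19 in the classes above the floor. The lowest class, with a median of 3.24, passed the filter on low counts mainly through the KO libraries.

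Some zinc finger genes rose although WT cells already transcribed them well. ZNF268, the called zinc finger gene with the highest WT level, had 28.2, 36.1 and 31.7 CPM in WT and 64.9, 83.1 and 63.6 CPM in KO libraries (log2 FC 1.14, SE 0.165, adjusted P = 0.00867 from edgeR's test). ZNF84 (chr12:133613878-133639890) rose from 15.6 ± 1.34 to 55.3 ± 13.4 CPM (SD, n = 3), and its neighbour ZNF140 from 15.4 ± 1.89 to 46.3 ± 5.30 CPM. ZNF354A on chromosome 5 rose from 22.4 ± 3.72 to 50.7 ± 10.9 CPM, and ZNF551 on chromosome 19 from 17.4 ± 1.75 to 47.7 ± 20.1 CPM. In all of these genes the lowest KO library lay above the highest WT library. The calls on ZNF551 (adjusted P = 0.0423 in edgeR's test) and ZNF354A (adjusted P = 0.0258) were lost without S15, S16, S17 or S19, that on ZNF354A also without S20 and that on ZNF551 also with voom and with edgeR's own filter on low counts. The call on ZNF268 was lost without S15 or S17. ZNF107 on chromosome 7 was the 1 gene that passed the adjusted P value (0.0467) but not the FC threshold, at 17.5 ± 2.11 CPM in WT and 34.2 ± 5.33 CPM in KO cells.

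The neighbourhood of ZNF274 itself, at the end of chromosome 19 (chr19:58694396-58724928), gave a pattern that differed between the KO libraries. Within 250 kb before ZNF274, all 4 genes with a mean of at least 5 CPM over the 6 libraries were called higher. ZSCAN18, ZNF329 and ZNF606 had WT means below 5 CPM and reached this level through the KO libraries. The count is therefore a description only, and 0.479% of all genes were called higher. ZSCAN18, a SCAN zinc finger gene, had 3.51, 1.34 and 1.83 CPM in WT and 59.4, 37.5 and 29.4 CPM in KO libraries (log2 FC 4.24, SE 0.376, adjusted P = 0.000328 from edgeR's test). ZNF329 rose from 3.62 ± 0.825 to 35.9 ± 11.2 CPM (SD, n = 3), ZNF606 from 3.71 ± 1.01 to 24.8 ± 13.1 CPM and ZNF256 from 6.21 ± 0.523 to 26.8 ± 11.7 CPM. The call on ZNF256 was lost without S15 or S16 and that on ZNF606 without S15. In each of the 4 genes S18 was the highest and S20 the lowest KO library. ZNF544, the first gene after ZNF274 with such a level, had 214, 66 and 159 counts in WT libraries and 0, 875 and 569 counts in S18, S19 and S20. A count of 0 in S18 allows up to 0.131 CPM, while S19 and S20 lay above every WT library.

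Beyond ZNF544, the next 13 genes with a mean of at least 5 CPM (chr19:58859084-59116590) were lower in S18 and in S19 than in any WT library, and not in S20. Their median log2 ratio to the WT mean was -1.14 in S18, -1.19 in S19 and 0.056 in S20, against -0.17 to 0.14 in the WT libraries. TRIM28, the corepressor that KZFPs recruit, is one of them, with 30751, 23624 and 29268 counts in WT and 7160, 11505 and 22644 counts in KO libraries. UBE2M, a conjugating enzyme of the ubiquitin-like protein NEDD8, had 4804, 4535 and 4936 counts in WT and 1862, 2207 and 4549 counts in KO libraries. With all 6 libraries none of the 13 was called, and the log2 FC was -0.90 for TRIM28 (SE 0.311, adjusted P = 0.537 in edgeR's test) and -0.60 for UBE2M (SE 0.281, adjusted P = 0.71). Leaving out S20, a fit singled out here after the values were seen, gave 17 genes called lower, of which 5 were among the 13. These included TRIM28 (log2 FC -1.50, adjusted P = 0.00173 in edgeR's test), UBE2M (log2 FC -1.11), CHMP2A and ZNF584. The 13 genes had a median log2 FC of -0.17 in NPCs.

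**Figure D3:**
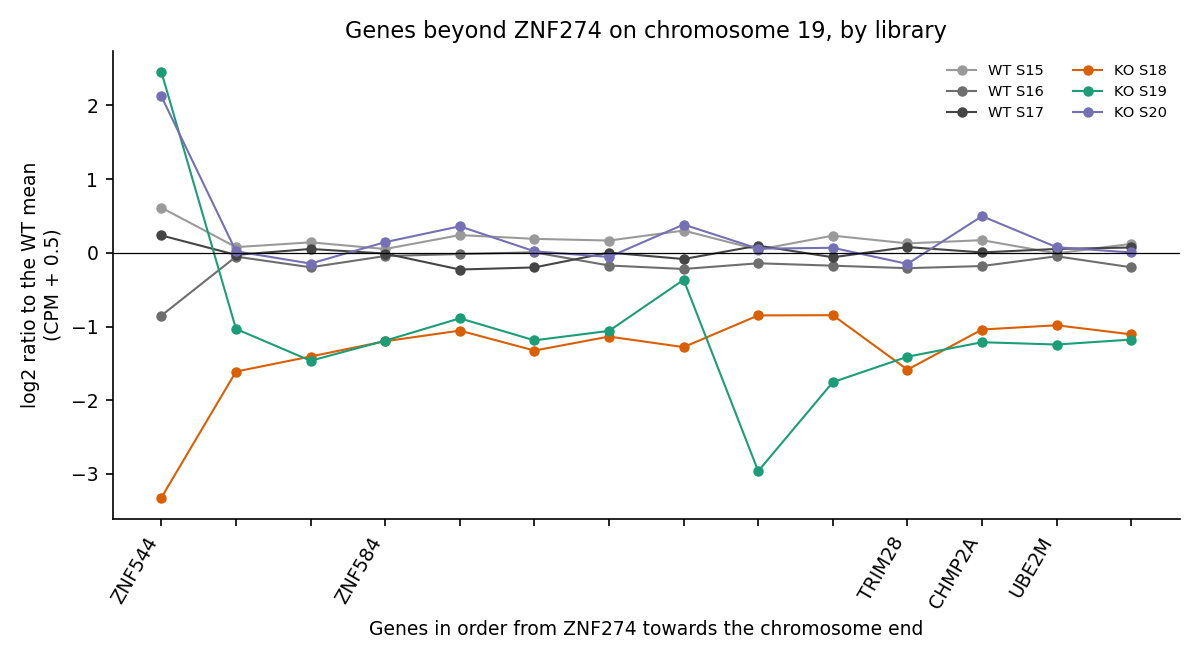
Log2 ratio to the WT mean (CPM + 0.5, y axis) of the 14 genes with a mean of at least 5 CPM after ZNF274, in their order along chromosome 19 (x axis, with the genes named in the text labelled), with a line for each library. S18 and S19 lie below the 3 WT libraries for the 13 genes beyond ZNF544, while S20 lies among or above them, and S18 has no counts of ZNF544.

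The median log2 ratio of the 73 called zinc finger genes to the WT mean was 2.13, 2.07 and 1.87 in S18, S19 and S20. They were called on these same libraries, so that a high value in each is part of how they were chosen. Of the 19 tested genes of the H3K9me3 machinery, which include TRIM28, SETDB1 and the HP1 proteins, none was called, and their median log2 FC was -0.01.

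Called genes that share a start region with another gene were set beside that partner. Among all tested genes there were 1201 pairs transcribed away from each other with start sites at most 1000 bases apart, and 8 of these pairs held a called gene. In 4 of the 8 both members were called, and in the other 4 the partner had a log2 FC above 0, at an unadjusted P value below 0.05 in 2. Of all tested genes, 51.4% had a log2 FC above 0 and 4.43% were higher at that P value. ZNF528-AS1 and ZNF528, which start 58 bases apart, had means of 0 and 0.124 CPM in WT and of 0.794 and 7.71 CPM in KO cells. ZNF582 rose from 3.44 to 11.3 CPM and its divergent transcript ZNF582-DT from 0.327 to 4.23 CPM. ZNF891 rose from 2.68 to 8.11 CPM and ZNF10, whose KRAB domain is widely used as a repressor module, from 5.39 to 19.01 CPM. The pair of ZNF850 (2.52 to 14.0 CPM) and the noncoding gene ENSG00000267260 (2.65 to 17.5 CPM) is the one of the 4 that holds a gene outside the zinc finger family. The 4 pairs with both members called are a count with no test. Of the 4 partners that were not called, EXO5-DT, ZFP28-DT and ZNF470-DT had means of at most 0.309 CPM, and WT means below the floor. Like the called ZNF528-AS1, they passed the filter on low counts mainly through the KO libraries, so their direction is a description only. The fourth was ZNF568 (5.33 to 10.2 CPM, adjusted P = 0.171 in edgeR's test), next to the called ZNF829.

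The sequences between the annotated start sites of the 4 pairs are printed because both genes of a pair begin at their edges. They were read from the plus strand of GRCh37 (hg19), 5' to 3', with CpG dinucleotides in capitals.
ZNF528-AS1 / ZNF528, chr19:52901045-52901101: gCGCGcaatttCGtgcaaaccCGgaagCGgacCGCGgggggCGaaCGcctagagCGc
ZNF582 / ZNF582-DT, chr19:56904908-56905024: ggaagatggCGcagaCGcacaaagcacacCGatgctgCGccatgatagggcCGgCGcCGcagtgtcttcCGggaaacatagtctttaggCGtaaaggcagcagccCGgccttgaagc
ZNF850 / ENSG00000267260, chr19:37263728-37264001: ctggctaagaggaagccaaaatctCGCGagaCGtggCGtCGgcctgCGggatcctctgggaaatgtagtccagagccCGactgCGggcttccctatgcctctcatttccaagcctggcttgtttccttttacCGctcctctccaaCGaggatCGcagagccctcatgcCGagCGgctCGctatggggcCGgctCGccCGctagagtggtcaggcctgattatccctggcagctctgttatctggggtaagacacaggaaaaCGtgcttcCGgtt
ZNF891 / ZNF10, chr12:133706861-133707160: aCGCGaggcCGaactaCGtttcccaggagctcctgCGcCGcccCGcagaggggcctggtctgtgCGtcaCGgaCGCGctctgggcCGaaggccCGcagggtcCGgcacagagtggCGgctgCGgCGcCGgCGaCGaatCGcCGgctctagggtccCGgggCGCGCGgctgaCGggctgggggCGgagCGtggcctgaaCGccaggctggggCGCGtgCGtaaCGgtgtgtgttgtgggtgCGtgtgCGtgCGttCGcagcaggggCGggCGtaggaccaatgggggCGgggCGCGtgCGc
They held 10, 10, 19 and 44 CpGs in 57, 117, 274 and 300 bases, or 17.5, 8.55, 6.93 and 14.7 per 100 bases. In 1010 other gaps of at least 50 bases, between pairs with no called gene, the median was 9.71 CpGs per 100 bases (quartiles 6.91 and 12.7), and 99.9% held at least 1. Of the 4 gaps, 2 lie between these quartiles and 2 above them.

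Other genes close to called zinc finger genes were counted in the same way. Of 29 tested genes outside both families within 50 kb of a called zinc finger gene, 27 had a log2 FC above 0, 12 were higher at an unadjusted P value below 0.05 (41.4%) and 2 were called. Of 17816 genes farther away, 571 were higher at that level (3.205%). Most of the 29 are noncoding genes or pseudogenes at low levels, and several of the 12 had WT means below the floor, so that they passed the filter on low counts mainly through the KO libraries and the counts are a description only. Of the 6 with a WT mean of at least 5 CPM, CHFR, a ubiquitin ligase gene on chromosome 12, was at 22.3 ± 3.47 CPM (SD, n = 3) in WT and 37.7 ± 1.61 CPM in KO cells, and the processed pseudogene IPO5P1, whose reads may be split with its parent gene, at 5.95 and 9.46 CPM. The other 4, TPM3P9, PPP2R1A, KIF15 and KIAA1143, had log2 FC values of 0.19, 0.13, 0.16 and 0.00. Whether counting used the strand is not given in the sources used here, so that reads of overlapping genes on opposite strands cannot be told apart.

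Besides the genes known to belong to the zinc finger and PCDH families, 9 were called higher (5 without S15 or S17, 4 without S16 and 18 without S20), of which 6 are in the annotation and 3 are of unknown family, and EXO5 was the only one annotated as protein-coding. EXO5 (chr1:40974413-40981710) encodes a single-strand DNA exonuclease of genome maintenance. It had 177, 158 and 156 counts in WT and 348, 413 and 279 counts in KO libraries, so that the groups did not overlap (log2 FC 1.20, SE 0.216, adjusted P = 0.0375 from edgeR's test). The next gene on its strand, 15535 bases further, is the KZFP ZNF684, which had a log2 FC of 0.74 (SE 0.237, adjusted P = 0.488). The call on EXO5 was lost with voom and without S15, S16, S17 or S19.

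The other 5 annotated genes were noncoding or pseudogenes. LINC00665 (chr19:36750442-36822672), between ZNF146 and ZFP14, had 169, 62 and 118 counts in WT and 613, 860 and 795 counts in KO libraries (log2 FC 2.81, SE 0.301, adjusted P = 0.000978 in edgeR's test). Neither neighbour was called, with log2 FC values of -0.33 for ZNF146, which has no KRAB box, and 0.56 for the KZFP ZFP14. ENSG00000267260 had 91, 71 and 73 counts in WT and 473, 429 and 500 in KO libraries. ENSG00000176593, a noncoding gene antisense to ZNF606 and overlapping it, had 15, 12 and 5 counts in WT and 120, 117 and 91 in KO libraries. All 3 of these genes lie next to zinc finger genes on chromosome 19, and the groups did not overlap in any of them.

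The remaining 2 of these lie on other chromosomes. ENSG00000215146, a transcribed pseudogene on chromosome 10 (chr10:42831549-42848459), had 2, 3 and 1 counts in WT and 106, 376 and 317 counts in KO libraries, at least 91.9-fold higher. It was lowest in S18 among the KO libraries. ENSG00000266680, a noncoding gene of chromosome 6 that overlaps PTP4A1, had 2, 4 and 5 counts in WT and 20, 47 and 25 in KO libraries, a call lost under 6 of the alternatives. PTP4A1 itself was at 179 CPM in WT and 197 CPM in KO cells. Another 3 identifiers were called that the annotation used here does not hold, so their genes, families and positions are not given. They are ENSG00000261716, ENSG00000196963 and ENSG00000167383, and the last had 195, 247 and 43 counts in S18, S19 and S20 against 5 to 18 in WT libraries. The call on ENSG00000167383 was lost with voom and without S15, S16, S17 or S19. That on ENSG00000261716 was lost without S15, S16 or S17, and that on ENSG00000196963 without S16.

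**Figure D4:**
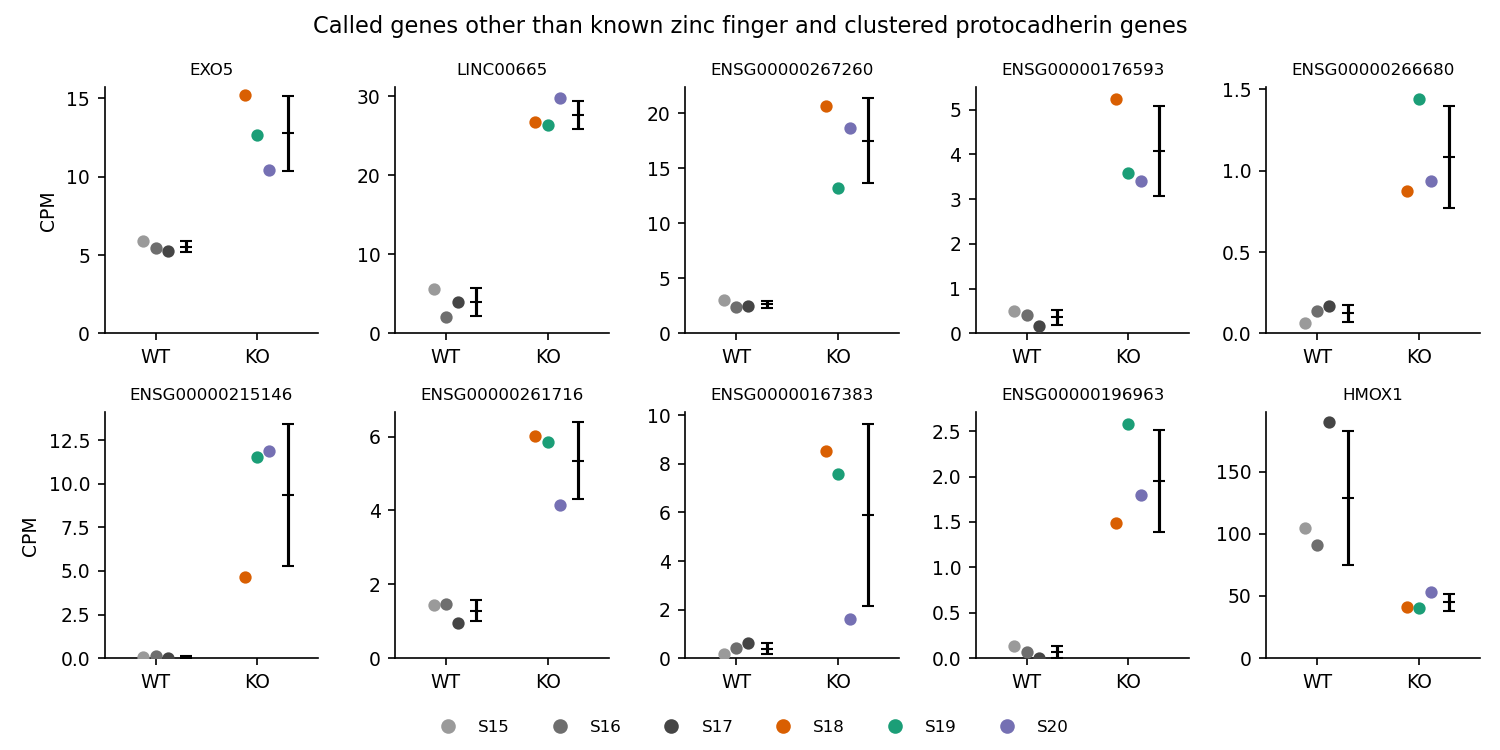
CPM of the 10 called genes that are not known zinc finger or clustered PCDH genes in each library (coloured points), with the mean and SD of each group of 3 beside them. Every y axis starts at 0. In each panel the 3 KO libraries lie on one side of the 3 WT libraries, below them only for HMOX1.

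HMOX1, which encodes the heme-degrading enzyme heme oxygenase 1 and is a target of the oxidative stress factor NRF2, was the only gene called lower. It had 3139, 2640 and 5613 counts in WT and 947, 1309 and 1417 counts in KO libraries, and the call was lost without S15 or S19. The genes on either side, TOM1 and MCM5, had log2 FC values of -0.14 and -0.08. Of 31 listed NRF2 targets and heme genes tested, HMOX1 was the only one called, 6 were lower at an unadjusted P value below 0.05 and none was higher, and the median log2 FC was -0.10. Without S18, 3 of the 31 were lower and 2 higher at that level, with a median of -0.14. Of all genes tested on the 6 libraries, 2.69% were lower and 4.43% higher at that level. FTL, the ferritin light chain, had 485 ± 33.5 CPM in WT and 353 ± 66.5 CPM in KO cells (SD, n = 3, log2 FC -0.46, adjusted P = 0.501). FTL lies in the segment of chromosome 19 described next, where most genes were lower.

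Genes outside the families were lower together along 20 Mb of chromosome 19. Over 9970 genes outside both families with a mean of at least 5 CPM, the median log2 FC was -0.04. In the 185 of these genes between 30 and 50 Mb of chromosome 19 it was -0.42, and 171 lay below 0. Each of the 4 bins of 5 Mb in the segment had a median between -0.44 and -0.42. All 3 KO libraries shared it, with a median log2 ratio to the WT mean of -0.36 in S18, -0.51 in S19 and -0.38 in S20, against 0.14, -0.17 and 0.030 in the WT libraries. In 97 of the 185 genes (52.4%) every KO library was below every WT library, compared with 6.45% of all 9970. The rest of chromosome 19 had smaller medians below 0, at -0.19 from 0 to 30 Mb and -0.18 from 50 to 60 Mb. There 229 of 285 and 46 of 64 genes lay below 0. WT library S16 had medians of -0.21 and -0.20 in these 2 parts, so that the groups overlapped. The segment was chosen after the values were seen and carries no test.

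None of the lower genes of this segment was called. Of the 363 of the 9970 genes that were lower at an unadjusted P value below 0.05, 97 lie in this segment, or 26.7%, which holds 1.86% of the genes. Because the segment was chosen after these values were seen, this share is a description only. EIF3K, a subunit of translation initiation factor 3, had 368, 305 and 360 CPM in WT and 194, 222 and 227 CPM in KO libraries (log2 FC -0.68, SE 0.133, adjusted P = 0.0623 in edgeR's test). SLC1A5, a glutamine transporter, had 653, 625 and 766 CPM in WT and 415, 275 and 433 CPM in KO libraries. The calmodulin gene CALM3, the nucleolar methyltransferase gene FBL, SUPT5H and TIMM50 had log2 FC values of -0.57 to -0.56 and adjusted P values of 0.0971 to 0.125. These 6 genes are among the 10 lower uncalled genes outside the families with the lowest P values and a mean of at least 1 CPM. In none did the groups overlap, which is part of how they were chosen, and 5.26% of all genes had KO below WT in this way.

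Most zinc finger genes of the same 20 Mb had a log2 FC above 0, namely 48 of the 66 protein-coding ones tested, with a median of 0.37, and 3 were called. All 48 lie between 35 and 45 Mb. The 2 at 30 to 35 Mb and the 2 at 45 to 50 Mb were below 0, with medians of -0.22 and -0.63, and 6 of the 66 were lower at an unadjusted P value below 0.05. The only genes outside the families called in this segment were the noncoding LINC00665 and ENSG00000267260, both higher. A segment of chromosome 9, from 30 to 40 Mb, held 58 measured genes with a median log2 FC of -0.38. Its library medians were -0.16, 0.026 and 0.13 in WT and -0.22, -0.44 and -0.45 in KO libraries, so that S15 and S18 lay close together, and the nucleolar gene NOL6 there had a value of -0.72. In NPCs the median log2 FC of the 2 segments was 0.0050 and 0.055, with 0.028 over all measured genes.

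Other blocks of genes were shifted in 1 library or in some of them. S18 had a median beyond 0.35 from the WT mean in 90 of 436 bins of 5 Mb, S19 in 10 and S20 in 13, against 0 to 7 in the WT libraries. In S18 the medians were -0.41 over 457 genes of chromosome 5, -0.35 over chromosome 2 and -0.34 over chromosome 16. On chromosome 21 S18 was at -0.34 and S19 at 0.34, so that their mean shows no change there. On chromosome 2, from 195 to 200 Mb, the medians were -0.62 in S18 and -0.38 in S20 but -0.02 in S19. On chromosome 6, from 135 to 140 Mb, they were -0.18, -0.32 and -0.39 in S18, S19 and S20, and -0.26 in WT library S15. S15 was also lower at 70 to 80 Mb of chromosome 9, with medians of -0.52 and -0.49.

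**Figure D5:**
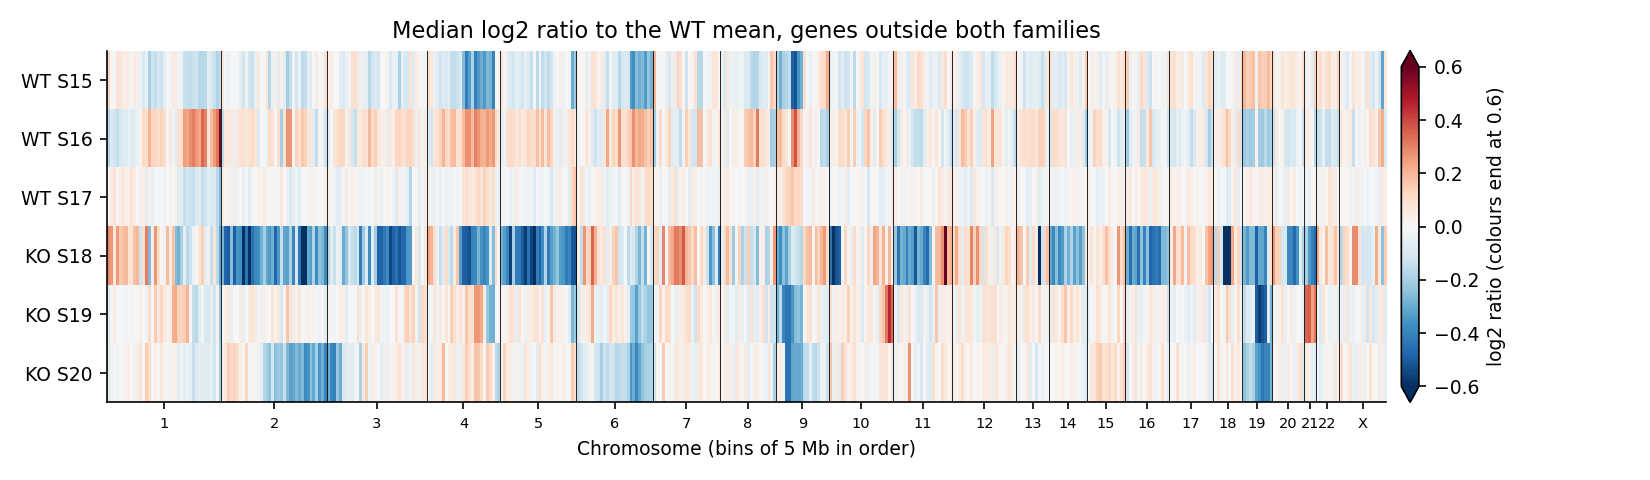
Median log2 ratio to the WT mean of genes outside both families in 436 bins of 5 Mb (x axis, in order along the chromosomes) for each library (rows), with colours that end at 0.6 in either direction. S18 has the most bins away from 0, and the block on chromosome 19 is blue in all 3 KO libraries.

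Of 38 clustered PCDHs tested, 9 were called higher, and their levels differed between the KO libraries. Leaving out S16 gave 1 PCDH call, leaving out S15 or S17 gave 4, and leaving out S18 gave 13. The 38 tested genes summed to 6.78, 5.68 and 5.05 CPM in WT libraries and to 23.8, 43.3 and 45.0 CPM in S18, S19 and S20. S18, the lowest KO library, is also the one in which other genes of chromosome 5, where the PCDHs lie, were lower, and the part of this in its PCDH values was not tested. The 17 tested genes of the beta cluster, pseudogenes included, summed to 1.03 to 1.67 CPM in WT and to 11.01, 26.96 and 24.59 CPM in KO libraries. No WT library exceeded the floor for 20 of the 38, which passed the filter on low counts mainly through the KO libraries, so the sums and counts over tested PCDHs are a description only. The 19 gamma genes summed to 3.90 to 5.11 CPM in WT and to 12.01, 14.28 and 18.69 CPM in KO libraries, and reads on the last exons that all gamma isoforms share cannot be assigned to one of them.

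The 9 called genes comprise 8 protein-coding isoforms and the pseudogene PCDHB18P. S18 was the lowest KO library in CPM in 8 of the 9, and the exception was PCDHGC3, at 3.45, 2.61 and 4.34 CPM in S18, S19 and S20. PCDHB12 had 4, 1 and 8 counts in WT and 30, 200 and 123 counts in S18, S19 and S20, and PCDHB18P had 2 counts in each WT library and 16, 79 and 56 in KO libraries. PCDHB10 and PCDHB8, at 0 to 3 counts in WT libraries, had 9, 46 and 13 and 14, 50 and 49 counts in KO libraries. All 4 lay above every WT library in every KO library, with 9 to 30 counts in S18. PCDHGA11 was the most abundant isoform in WT cells, with 70, 75 and 57 counts, and was not called, at 47, 111 and 119 counts. Nonclustered PCDHs (8 tested) and type I and II cadherins (14 tested) had no called member, and their median log2 FC values were 0.20 and 0.09.

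Pathways outside these families were described by lists. Of 422 tested genes on 18 pathway lists, HMOX1 was the only one called (0.237%, against 0.484% of all genes and 0.0544% of the 18395 genes not known to belong to either family, which include identifiers of unknown family), and their median log2 FC was -0.04. Among p53 targets, 7 of 27 (5 without S18) were higher at an unadjusted P value below 0.05 and none was lower, with a median log2 FC of 0.21. Of all genes, 4.43% were higher and 2.69% lower at that level, and the counts of the lists below have to be read against these shares. GADD45A, a growth arrest gene, had 6.78, 8.05 and 5.39 CPM in WT and 17.2, 11.5 and 11.5 CPM in KO libraries (log2 FC 0.99, adjusted P = 0.19 from edgeR's test). The median p53 target was at 0.25, 0.37 and -0.00 in S18, S19 and S20 relative to the WT mean.

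Of 22 tested genes of the integrated stress and unfolded protein response, none was called, and 5 were lower and 1 higher at an unadjusted P value below 0.05. Their median log2 ratio to the WT mean was -0.31 in S18, -0.46 in S19 and 0.02 in S20, against -0.12, 0.07 and 0.05 in the WT libraries. PSAT1, an enzyme of serine synthesis, had 334, 648 and 644 CPM in WT and 199, 191 and 335 CPM in KO libraries, so that S20 and S15 were alike and the groups overlapped. Without S20, the fit singled out after the values were seen, PSAT1 and ASNS were the 2 genes of this list called lower (log2 FC -1.47 and -1.05). DDIT3, the stress response factor CHOP, was in contrast at 3.18 ± 0.282 CPM in WT and 6.94 ± 1.87 CPM in KO cells (SD, n = 3, adjusted P = 0.166).

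The lists of ribosomal protein, heat shock and nucleolar genes had medians below that of all genes, with no call. Of 82 ribosomal protein genes, 19 were lower at an unadjusted P value below 0.05, and the median log2 FC was -0.14. Their library medians were 0.10, -0.10 and -0.01 in S15, S16 and S17 and -0.10, -0.25 and -0.11 in S18, S19 and S20. WT library S16 thus lay close to S18 and S20. The 12 ribosomal protein genes on chromosome 19 had a median of -0.36 and the other 70 a median of -0.13. RPL13A, on chromosome 19, had a log2 FC of -0.49 (adjusted P = 0.169). Of 16 heat shock genes, 5 were lower at that level (2.69% of all genes), with a median log2 FC of -0.23 (-0.15 without S18) and library medians of -0.47 in S18, -0.14 in S19 and -0.09 in S20. Among the 5 were the mitochondrial chaperonin HSPE1 (194 ± 16.1 CPM in WT and 128 ± 22.5 CPM in KO cells, SD, n = 3) and HSPA1A (7.41 ± 3.93 and 2.70 ± 0.735 CPM), which shares reads with its near-identical copy HSPA1B. Of 45 genes of the nucleolus and rRNA synthesis, 5 were lower and none higher at that level, and the median log2 FC was -0.14 (-0.04 without S18), with library medians of -0.43 in S18, 0.01 in S19 and -0.09 in S20. The lists of DNA replication (43 genes), mitosis (35), nuclear lamina (17), cohesin and CTCF (16) and DNA methylation (13) genes had medians between -0.05 and 0.05 and no call. Interferon response genes had a median of 0.18, with 2 of 27 higher at an unadjusted P value below 0.05 (1 without S18) and library medians of 0.32 in S18, 0 in S19 and 0.15 in S20.

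Replication-dependent histone genes, whose mRNAs mostly lack a poly(A) tail, were highest in S18. All 31 tested genes had a log2 FC above 0, 19 at an unadjusted P value below 0.05, and none was called. Their median log2 ratio to the WT mean was 1.99 in S18, 0.56 in S19 and 0.04 in S20. Without S18, 24 of the 31 were above 0, 4 were higher at an unadjusted P value below 0.05, and the median log2 FC was 0.60 instead of 1.75. RN7SK, another RNA without a poly(A) tail, had 550, 255 and 1471 counts in WT and 17571, 1660 and 388 in KO libraries, again with S18 far above the rest. The part of RNA without a poly(A) tail in the values of S18 was not tested. HOX genes likewise had a median of 0.91 in S18 but -0.10 and 0.25 in S19 and S20.

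The neuronal cytoskeleton gene CRMP1, LRRC27 and AKAP3 were, with CHFR, among the 5 higher uncalled genes outside the families with the lowest P values and a mean of at least 1 CPM. CRMP1 was at 14.6 ± 4.07 CPM in WT and 31.2 ± 6.12 CPM in KO cells (SD, n = 3). LRRC27 was at 1.81 CPM in WT and 4.59 CPM in KO cells and AKAP3 at 1.52 and 4.29 CPM, with adjusted P values of 0.117 and 0.118 in edgeR's test. In these 4 genes every KO library lay above every WT library, which is part of how they were chosen, and the same held for 7.16% of all genes. MAGED4 on the X chromosome, which shares reads with a near-identical copy, had 60, 39 and 188 counts in WT and 10, 15 and 13 counts in KO libraries (log2 FC -2.80, adjusted P = 0.0855).

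The same knockout in NPCs, with 2 libraries a group, gave other values for most of these genes. The KO effect in HEK293T cells minus that in NPCs, tested as an interaction over all 10 libraries, passed an adjusted P value of 0.05 for 15.1% of 19254 genes. Of the 73 called zinc finger genes, 61 could be fitted and 47 differed, each with the larger effect in HEK293T cells. They were called on the same HEK293T libraries, so neither this number nor this direction is evidence by itself. Of the 61 tested in NPCs alone, 7 were called higher there too and 0 lower. ZSCAN18 and ZNF329 were already at 27.7 and 18.8 CPM in WT NPCs, against 2.23 and 3.62 CPM in WT HEK293T cells, and their log2 FC was 0.35 and 0.48 in NPCs. ENSG00000267260, by contrast, had a log2 FC of 2.55 in NPCs and 2.72 in HEK293T cells, and the difference in the joint fit, 0.15 (SE 0.524), did not pass the test. Of the 9 called PCDHs, 3 differed, among them PCDHGC4 (log2 FC 2.34 in HEK293T cells and -2.74 in NPCs). In NPCs 6 of the 9 were called higher too and 1, PCDHGC4, was called lower, where 8.45% of all genes tested were called higher. EXO5 had a log2 FC of 0.80 in NPCs, from 10.2 to 17.8 CPM, which in the joint fit differed by 0.38 (SE 0.311, adjusted P = 0.467 in edgeR's test) from that in HEK293T cells.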

How the data were processed

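Poly(A) RNA of the 6 HEK293T libraries was sequenced with a stranded kit. The authors aligned reads to hg19 using HISAT2, counted them per gene using featureCounts and deposited the raw counts (versions not given in the sources used here), and only those counts were used. They counted uniquely mapped reads only, over genes and transposable elements together, which can undercount near-identical paralogs, and they tested with voom. The strand setting of the counting is not given in the sources used here.

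From the counts, genes with a total of at least 6 were kept and scaled by TMM in edgeR 4.0.16 (R 4.3.3). KO was compared with WT by edgeR's quasi-likelihood test on these 6 libraries, with no covariate, adjusted P values over all genes after Benjamini-Hochberg, and a call at 0.05 and a 2-fold change. The interaction with cell type used all 10 libraries. Each SE was derived from the test, as the absolute log2 FC divided by the square root of its F statistic. Totals of 21421013 to 32285876 counts give a floor of 3 counts a library, which covers counting error only. Ratios for single libraries are log2 of CPM + 0.5. Of 22750 identifiers, 22030 were found in GENCODE models on GRCh37, and KZFPs were found in their translations with pyhmmer 0.12.3, from a KRAB box at an E-value of 1e-05 and 2 or more C2H2 fingers. The fit was tested on simulated data. Voom (limma 3.58.1), DESeq2 1.42.0, other filters and scalings, and leaving out each library were the alternatives. Genes were named by rule (ZNF274 and its neighbours within 250 kb, calls outside the families, called zinc finger genes with the highest WT level or largest rise, called PCDHs, and the uncalled and listed genes with the lowest P values), and the genes near start sites, segments and the end of chromosome 19 after their values were seen. Members and lists were chosen with earlier results of these data known. Results that name items withheld from the text are not reported here.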

Additional observations from a re-analysis of the deposited data

Results flagged for a closer look

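Several results differed between the cell types by the interaction test over all 10 libraries (edgeR's quasi-likelihood test, adjusted over 19254 genes). The KO effect in HEK293T cells minus that in NPCs, on the log2 scale, was 3.94 for ENSG00000261716 (adjusted P = 0.000458), 2.84 for LINC00665 (adjusted P = 0.00174) and 3.46 for ENSG00000167383 (adjusted P = 0.0158). It was 3.65 for ENSG00000176593 (adjusted P = 0.00173), 2.98 for ENSG00000196963 (adjusted P = 0.00598) and 4.95 for ENSG00000266680 (adjusted P = 0.00202). For HMOX1 it was -2.06 (adjusted P = 0.00721), the only one of these genes with the lower value in HEK293T cells. Of the called zinc finger genes 47 differed in this way, and of the called PCDHs 3. These genes were called in the HEK293T libraries that also enter the interaction, so neither their number nor the direction of the difference is independent of that choice.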

How the results depend on the processing

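No paired analysis was possible because the labels give the HEK293T libraries running numbers that the groups do not share. With voom 4 PCDHs were called. With DESeq2 the calls were 153 higher and 10 lower, among them 15 PCDHs, 39 other higher genes and 6 members of pathway lists, and 91 of the 92 genes were shared. A filter of 1 count gave 2 lower genes. At an adjusted P value of 0.01, 60 genes were higher and 0 lower, with 5 other higher genes and 0 list members. Leaving out single libraries gave 42 (S16) to 101 (S18) higher genes, 0 (S15) to 17 (S20) lower genes, 37 (S16) to 76 (S18) zinc finger genes, 1 (S16) to 13 (S18) PCDHs, 4 (S16) to 18 (S20) other higher genes and 0 (S15) to 5 (S20) list members. The cause of these shifts was not tested, beyond the smaller number of libraries. The number of genes at an unadjusted P value below 0.05 was 840 without S17, against 1353 with all 6 libraries. The other counts of calls stayed within 1.5 times. Of 1131 values of named results under these alternatives, 1051 kept direction and side of the threshold, 67 lost the call, 13 gained one and 0 changed direction. The median log2 FC of the segment of chromosome 19 ranged from -0.49 to -0.33 and that of chromosome 9 from -0.47 to -0.30, where scaling by library size moved the median of all measured genes to 0.052. Levels at or near the floor of 3 counts, which include 22 of the called zinc finger genes in WT cells, limit what their fold changes can show.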

Other observations

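ERVV-1 and ERVV-2, neighbouring envelope genes of endogenous retroviral origin on chromosome 19 (chr19:53517174-53519376 and chr19:53547993-53554933), were not counted in any WT library. In S18, S19 and S20, ERVV-1 had 6, 12 and 9 counts and ERVV-2 had 7, 22 and 7 counts. Neither was called (adjusted P = 0.107 and 0.0887 in edgeR's quasi-likelihood test), and the KO means were at least 3.17 and 4.07 times the floor. The pseudogene WDR87BP on chromosome 19 had 0 counts in WT libraries too and 17, 8 and 13 counts in KO libraries (adjusted P = 0.0697). These genes were picked after their values were seen, and such genes pass the filter on low counts only through the KO libraries.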
